A study of Homo sapiens with 12 samples.

Results

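NODAL signalling was followed through 8 genes that encode its ligand NODAL, the related ligand GDF3, the co-receptor TDGF1, the secreted inhibitors LEFTY1, LEFTY2 and CER1, the nuclear partner FOXH1 and the SMAD repressor SKIL. The genes were taken by name, and all 8 were found among the 58575 genes of the count table and the 60617 genes of the TPM table. RNA-Seq had been performed on 12 libraries of 201B7, an established human induced pluripotent stem cell (iPSC) line whose labels give skin as the tissue of origin, with 3 libraries for each of 4 culture conditions. All cells were harvested on Day 5. Cond 1, labelled control, was kept in StemFit, a maintenance medium for pluripotent cells. Cond 2, labelled low nutrient, received StemFit that had been heated at 56 °C for 30 min. Cond 3, labelled differentiation, received DMEM with 10% FBS, non-essential amino acids and GlutaMax. The study dates the heated medium of Cond 2 from Day 2 and the FBS stimulus of Cond 3 to Day 4. The changed media therefore also differ in the time of exposure before harvest. Cond 4, spelled Physical stimulas in the labels, was pipetted 20 times at passaging. All libraries came from this 1 line. The design notes place all 4 conditions on each of 3 plates, but do not say that a replicate number marks a plate. The study's results call the replicates technical, while its methods say that the whole arrangement was carried out 3 times. The p-values below therefore measure the spread between these libraries, which may be technical.

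NODAL is a secreted ligand of the TGF-beta superfamily that patterns the early embryo and helps to keep human pluripotent stem cells undifferentiated. It binds activin receptors together with the co-receptor TDGF1, also called CRIPTO. The receptors phosphorylate SMAD2 and SMAD3, which enter the nucleus with SMAD4 and act on target genes with FOXH1. NODAL, LEFTY1 and LEFTY2 are themselves targets of the pathway, and the LEFTY proteins bind the ligand or its co-receptor and so close a negative feedback loop.

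The DNA just before the RefSeq start of 4 of the genes is shown, because FOXH1 and the SMAD proteins act through short DNA words. The words searched on both strands were AATCCACA and AATACACA for FOXH1 and CAGAC for the SMAD proteins, and neither FOXH1 word overlapped CAGAC in these windows. Capitals mark the matches. Each run holds the 250 bases before the start in RefSeq (GRCh38.p14), read 5′ to 3′ on the strand of the gene. NODAL lies at chr10:70441682-70441931 on the reverse strand, CER1 at chr9:14722734-14722983 on the reverse strand, GDF3 at chr12:7695776-7696025 on the reverse strand and SKIL at chr3:170357465-170357714 on the forward strand.
NODAL: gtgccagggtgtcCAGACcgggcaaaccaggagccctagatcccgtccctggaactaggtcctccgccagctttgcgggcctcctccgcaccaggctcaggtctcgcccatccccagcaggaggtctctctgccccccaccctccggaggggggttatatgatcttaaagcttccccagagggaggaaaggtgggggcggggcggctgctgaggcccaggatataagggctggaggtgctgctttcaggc
CER1: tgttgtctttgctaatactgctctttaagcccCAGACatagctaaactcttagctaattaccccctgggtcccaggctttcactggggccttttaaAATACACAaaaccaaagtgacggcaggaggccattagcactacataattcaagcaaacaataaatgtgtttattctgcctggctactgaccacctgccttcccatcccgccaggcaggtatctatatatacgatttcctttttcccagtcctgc
GDF3: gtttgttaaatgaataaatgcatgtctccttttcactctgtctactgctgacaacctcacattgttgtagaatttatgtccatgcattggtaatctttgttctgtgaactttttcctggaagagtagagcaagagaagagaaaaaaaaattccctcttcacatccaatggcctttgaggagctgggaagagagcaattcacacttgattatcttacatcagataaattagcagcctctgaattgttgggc
SKIL: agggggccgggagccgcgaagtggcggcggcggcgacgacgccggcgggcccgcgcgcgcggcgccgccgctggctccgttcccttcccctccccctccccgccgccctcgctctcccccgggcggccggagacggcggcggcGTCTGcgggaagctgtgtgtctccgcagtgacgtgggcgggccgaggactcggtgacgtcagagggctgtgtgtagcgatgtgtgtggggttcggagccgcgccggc
The CER1 window held AATACACA from 154 to 147 bases before the start and CAGAC from 218 to 214 bases before it. CAGAC stood from 237 to 233 bases before the start of NODAL, and its reverse complement GTCTG from 107 to 103 bases before the start of SKIL. None of these words was in the GDF3 window. Among 35116 RefSeq promoter windows of this length, 0.709% held AATCCACA, 0.666% held AATACACA, 1.37% held either and 38.0% held CAGAC. A match is a stretch of letters and not a measured binding site. TDGF1, LEFTY1, LEFTY2 and FOXH1 are named here without a sequence.

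In GENCODE release 44 (GRCh38, the build of the deposited alignments), NODAL (ENSG00000156574) spans 70431936 to 70447951 of chromosome 10, on the reverse strand. GDF3 (ENSG00000184344) spans 7689784 to 7695775 of chromosome 12 and CER1 (ENSG00000147869) spans 14719724 to 14722733 of chromosome 9, both on the reverse strand. TDGF1 (ENSG00000241186) spans 46574534 to 46582457 of chromosome 3 on the forward strand, and SKIL (ENSG00000136603) spans 170357342 to 170396835 of the same chromosome and strand. LEFTY1 (ENSG00000243709) and LEFTY2 (ENSG00000143768) are neighbours on the reverse strand of chromosome 1, from 225886282 to 225911382 and from 225936598 to 225941383. FOXH1 (ENSG00000160973) spans 144473412 to 144475849 of chromosome 8, on the reverse strand. The windows shown above for NODAL and SKIL precede the RefSeq start but lie inside these GENCODE spans. Expression was summed over the exons of each gene, so that no isoform is told apart.

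The libraries held between 16441148 and 21871503 counted reads, with a median of 18752394. Levels are given as TPM, which corrects for gene length and library total, and differences as log2 fold changes of the counts from edgeR's quasi-likelihood test, adjusted over the 17747 genes tested. A gene is said to rise or fall where its adjusted p was under 0.05. Libraries of the same condition were not copies of each other, since the chi-square per gene ran from 4.20 to 10.3 over the 12 pairs. The 10 pluripotency markers were at 1 TPM or more in every library, and their summed TPM lay between 7158 and 8941. Of these 10, 4 rose and 4 fell in Cond 2 and 5 rose and 3 fell in Cond 3 against Cond 1, by edgeR. NANOG (log2 fold change -1.09 and -2.16), L1TD1 (-0.73 and -0.43) and DPPA4 (-0.63 and -0.43) fell in both media, and SOX2 (0.44 and 0.45), LIN28A (0.24 and 0.14) and SALL4 (0.32 and 0.36) rose in both. Mesendoderm markers summed to between 10.6 and 15.4 TPM in Cond 1, 27.6 and 36.4 in Cond 2, 16.97 and 22.7 in Cond 3, and 11.5 and 16.7 in Cond 4, without overlap between Cond 1 and either changed medium. Of these 12, 5 could be tested, of which HHEX and CXCR4 rose in both media and TBXT in Cond 3, and FOXA2 was at 0 in every library. TBX6 held most of the sum in Cond 1, with a mean of 8.72 TPM, and passed the test in neither medium. HHEX had a mean of 0.956 TPM in Cond 1 and 13.5 in Cond 2. Neuroectoderm markers summed to between 111 and 138 TPM in Cond 1, 743 and 1105 in Cond 2, 242 and 292 in Cond 3, and 123 and 173 in Cond 4. Of these 8, 7 could be tested, of which 6 rose in Cond 2 and 3 in Cond 3 (LHX5, HESX1 and OTX2). OTX2 held most of the sum in Cond 1 and Cond 3, with means of 98.5 and 193 TPM. Surface ectoderm and amnion markers summed to between 21.0 and 24.5 TPM in Cond 1, 39.1 and 72.6 in Cond 2, 29.7 and 34.4 in Cond 3, and 20.4 and 24.4 in Cond 4. Of these 8, 4 could be tested. All 4 rose in Cond 2, and KRT7 and TFAP2A, but not GATA3 or DLX5, rose in Cond 3. KRT7 held most of the sum in Cond 1 and Cond 3, with means of 22.2 and 30.9 TPM. Of all genes tested, 10.9% rose in Cond 2 and 19.6% in Cond 3, by edgeR. Fibroblast markers summed to between 256 and 305 TPM in Cond 2 and between 579 and 615 in Cond 3, against 416 to 447 in Cond 1 and 377 to 399 in Cond 4, and LUM and DCN had at most 2 reads in any library. These markers did not move together. COL1A1 (log2 fold change -0.51 and 0.80) and COL1A2 (-0.41 and 1.20) fell in Cond 2 and rose in Cond 3. THY1 (-1.31 and -1.56) fell in both media, and COL3A1 passed the test in neither. In bulk RNA, fewer cells that express a gene and less RNA per cell cannot be told apart, and the part of these other cell types in the results below was not tested.

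Most of the 8 genes were lower in both changed media than in the control, and none passed the test after pipetting. In Cond 2 against Cond 1, 5 of 8 genes fell (NODAL, TDGF1, LEFTY1, FOXH1 and SKIL), where 10.2% of all genes tested fell. LEFTY2 alone of the 8 rose, where 10.9% of all genes rose. In Cond 3 against Cond 1, 6 of 8 genes fell (the same 5 and LEFTY2), where 18.9% of all genes fell, and 0 of 8 rose, where 19.6% of all genes rose. With a fold change above 2 as well, NODAL, TDGF1 and LEFTY1 fell in Cond 2, where 2.51% of all genes did, and NODAL, LEFTY1 and SKIL fell in Cond 3, where 3.28% of all genes did. The median log2 fold change of the 8 genes was -0.82 in Cond 2 and -0.94 in Cond 3, against 0.00018 and -0.0064 over all genes. Both comparisons used the same Cond 1 libraries. The 8 genes were chosen with earlier results of these data known, so that setting them beside all genes is a description only. GDF3 and CER1 did not pass the test in either medium.

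**Figure D1:**
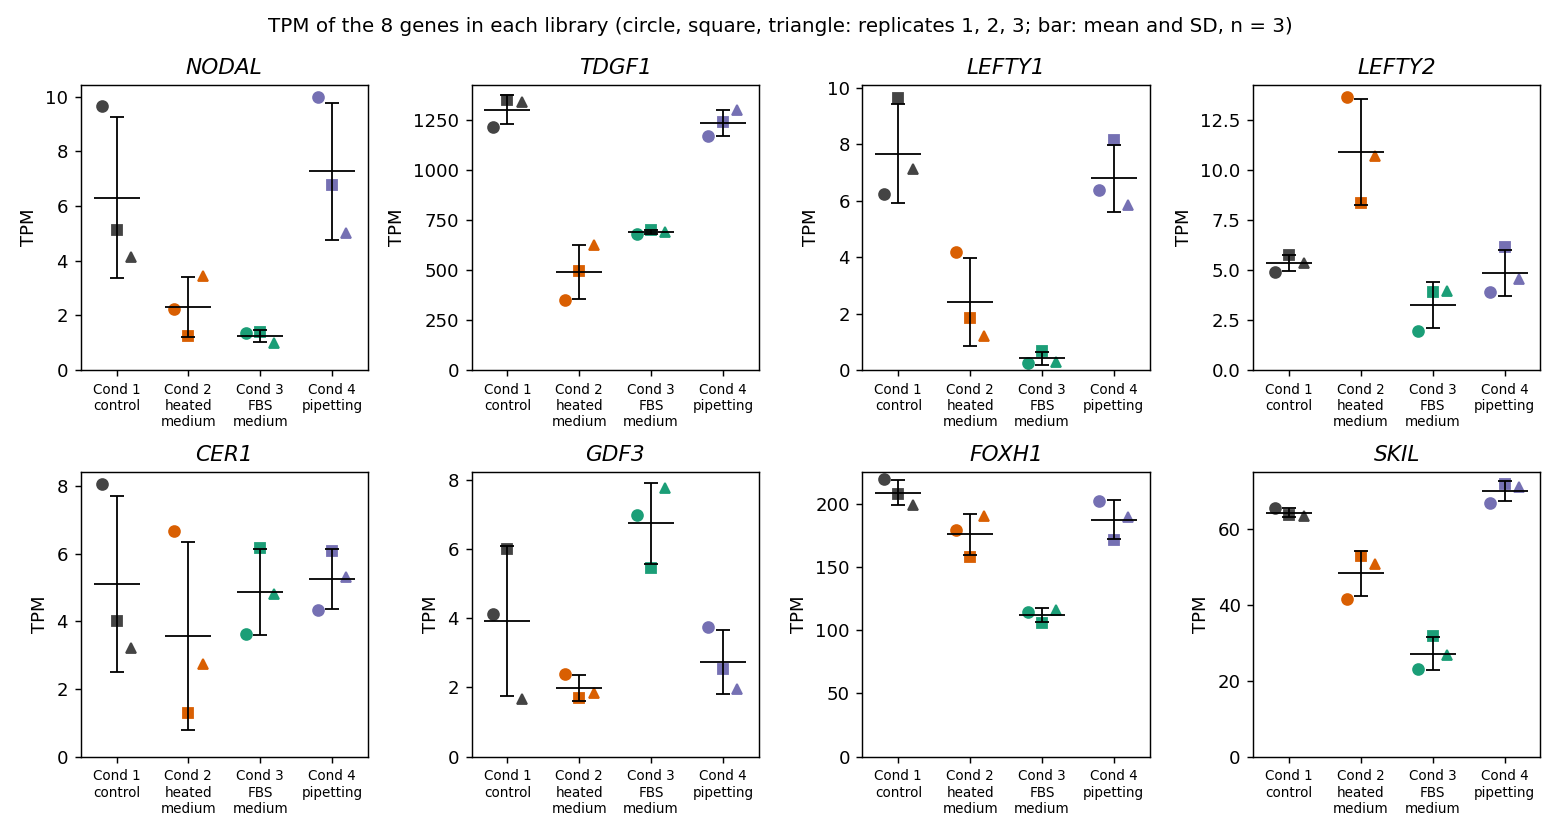
TPM (y axis, linear from 0, a scale of its own in each panel) of the 8 genes in each of the 12 libraries, by condition (x axis), with circles, squares and triangles for replicates 1, 2 and 3 and bars for the mean and SD of 3 libraries. NODAL, LEFTY1, FOXH1 and SKIL are lowest in Cond 3, TDGF1 is lowest in Cond 2 (351 to 623 TPM), LEFTY2 is highest in Cond 2 (8.35 to 13.7 TPM), and CER1 overlaps between all conditions.

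Of the ligands, NODAL was a low transcript that fell in both changed media. Its TPM was 9.65, 5.13 and 4.13 in replicates 1, 2 and 3 of Cond 1, and 2.22, 1.24 and 3.43 in those of Cond 2. Cond 3 had 1.35, 1.40 and 1.00, and Cond 4 had 9.99, 6.79 and 5.02. All libraries of Cond 2 and Cond 3 lay below all of Cond 1 and Cond 4, while Cond 2 overlapped Cond 3 and Cond 4 overlapped Cond 1. NODAL was 2.93-fold lower in Cond 2 (log2 fold change -1.55, standard error 0.389, edgeR adjusted p = 0.00432) and 5.07-fold lower in Cond 3 (-2.34, standard error 0.414, edgeR adjusted p = 5.32e-05). Cond 1 libraries held 41 to 90 reads of NODAL and Cond 3 libraries 9 to 14. Without replicate 1 of Cond 1, the highest of that condition, the log2 fold change in Cond 2 was -1.11 (edgeR adjusted p = 0.0750).

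GDF3, a ligand of the same superfamily that can signal through the same co-receptor, had another order of conditions. Its TPM was 4.11, 6.00 and 1.66 in Cond 1, 2.40, 1.70 and 1.85 in Cond 2, 6.998, 5.47 and 7.77 in Cond 3, and 3.76, 2.52 and 1.94 in Cond 4. Each Cond 3 library was higher than each Cond 2 library, whereas Cond 1 overlapped every other condition. The GDF3 level of Cond 3 was 3.52 times that of Cond 2 (log2 fold change 1.82, standard error 0.435, edgeR adjusted p = 0.0015). Against Cond 1 the log2 fold change was -1.04 in Cond 2 (standard error 0.450, edgeR adjusted p = 0.104) and 0.77 in Cond 3 (standard error 0.406, edgeR adjusted p = 0.139). Without replicate 3 of Cond 1, the lowest of that condition, the value in Cond 2 was -1.41 (edgeR adjusted p = 0.0232), and without replicate 2, the highest, the value in Cond 3 was 1.20 (edgeR adjusted p = 0.0433). GDF3 had 11 to 53 reads in a library.

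Set together, both ligands had a summed level of 10.2 ± 4.06 TPM in Cond 1, 4.28 ± 1.21 in Cond 2 and 10.0 ± 3.44 in Cond 4 (SD, n = 3), and of 8.35, 6.87 and 8.78 TPM in the libraries of Cond 3. GDF3 made up 84.0 ± 4.50% of this sum in Cond 3, with every library at 79.6% or above. In Cond 1 it made up 37.5 ± 14.2%, with libraries from 28.6 to 53.9%. Cond 2 (48.2 ± 11.9%) overlapped Cond 1, and Cond 4 had 27.5 ± 0.418%. No test was run on these shares.

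The co-receptor TDGF1 was by far the most abundant of the 8 genes, with 81.1 ± 1.67% of their summed TPM in Cond 1 and 65.9 ± 6.51% in Cond 2 (SD, n = 3). Its TPM was 1215, 1346 and 1336 in Cond 1, and 351, 496 and 623 in Cond 2. Cond 3 had 679, 698 and 691, and Cond 4 had 1169, 1238 and 1297. The order was Cond 2, Cond 3, Cond 4 and Cond 1 from the lowest, and only Cond 4 and Cond 1 overlapped among neighbours. TDGF1 was 2.83-fold lower in Cond 2 (log2 fold change -1.50, standard error 0.162, edgeR adjusted p = 0.000175) and 1.92-fold lower in Cond 3 (-0.94, standard error 0.159, edgeR adjusted p = 0.00149). Of the 5 genes that fell in both media it was the one with the smaller change in Cond 3, and the direct comparison of Cond 3 with Cond 2 gave a log2 fold change of 0.56 (standard error 0.160, edgeR adjusted p = 0.0232). That call was lost without replicate 2 of Cond 2 (0.56, edgeR adjusted p = 0.0667) and without replicate 1 (0.57, edgeR adjusted p = 0.0529), replicate 2 (0.55, edgeR adjusted p = 0.0628) or replicate 3 (0.55, edgeR adjusted p = 0.0607) of Cond 3, with the direction kept.

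TDGF1 shares sequence with processed copies of itself. Of the 31-base words of its transcripts, 54.5% occur elsewhere on the chromosomes and 44.2% in the transcribed pseudogene TDGF1P3. How reads that fit several places were counted is not given in the sources used here. TDGF1P3 was listed at 47.4 ± 1.57 TPM in Cond 1, 18.2 ± 5.21 in Cond 2, 24.7 ± 1.90 in Cond 3 and 44.0 ± 3.62 in Cond 4 (SD, n = 3), the same order as TDGF1. Its reads came to 3.98, 4.04, 3.90 and 3.88% of those of TDGF1 in the means of Cond 1 to Cond 4, so that the pseudogene followed the gene at a near-constant ratio. On the genome TDGF1 also overlaps LRRC2 on the opposite strand (3.87 to 9.77 TPM) and the gene model ENSG00000283877 on its own strand (5.42 to 22.9 TPM), and the strand setting of the counting is not given.

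The secreted inhibitors LEFTY1 and LEFTY2 moved apart in Cond 2 and both fell in Cond 3. LEFTY1 had 6.24, 9.63 and 7.13 TPM in Cond 1, 4.19, 1.85 and 1.21 in Cond 2, 0.259, 0.676 and 0.299 in Cond 3, and 6.37, 8.14 and 5.87 in Cond 4. Every library of Cond 3 lay below every library of Cond 2, and every library of Cond 2 below those of Cond 1 and Cond 4, which overlapped. LEFTY1 was 3.33-fold lower in Cond 2 (log2 fold change -1.74, standard error 0.365, edgeR adjusted p = 0.000768) and 18.6-fold lower in Cond 3 (-4.22, standard error 0.462, edgeR adjusted p = 3.99e-08), which was the largest change of the 8 genes in any comparison with Cond 1. Between Cond 3 and Cond 2 the log2 fold change was -2.48 (standard error 0.505, edgeR adjusted p = 0.000287). In Cond 3 only 3, 7 and 3 reads were counted on LEFTY1, against 65, 86 and 79 in Cond 1.

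LEFTY2 had 4.92, 5.75 and 5.37 TPM in Cond 1, 13.7, 8.35 and 10.7 in Cond 2, 1.93, 3.91 and 3.96 in Cond 3, and 3.88, 6.14 and 4.53 in Cond 4. Each Cond 2 library was higher than every library of the other conditions. Cond 3 lay below Cond 1 without overlap but overlapped Cond 4. LEFTY2 was 1.93-fold higher in Cond 2 than in Cond 1 (log2 fold change 0.95, standard error 0.264, edgeR adjusted p = 0.01), and without replicate 1 of Cond 2 the value was 0.72 (edgeR adjusted p = 0.0787). In Cond 3 it was 1.68-fold lower than in Cond 1 (-0.75, standard error 0.285, edgeR adjusted p = 0.0396). This call was lost without replicate 1, 2 or 3 of Cond 1 (edgeR adjusted p = 0.0544, 0.0933 and 0.0847) and without replicate 1 of Cond 3, where the value was -0.46 (edgeR adjusted p = 0.237). The direct comparison of Cond 3 with Cond 2 gave a 3.23-fold lower level (-1.69, standard error 0.276, edgeR adjusted p = 1.94e-05).

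The split between the LEFTY genes therefore differed between the conditions. LEFTY2 made up 44.1, 37.4 and 43.0% of the summed TPM of both genes in Cond 1 and 37.9, 43.0 and 43.6% in Cond 4. It made up 76.6, 81.8 and 89.9% in Cond 2 and 88.2, 85.3 and 93.0% in Cond 3. The mean share was 41.5 ± 3.62% in Cond 1, 82.8 ± 6.70% in Cond 2, 88.8 ± 3.89% in Cond 3 and 41.5 ± 3.14% in Cond 4 (SD, n = 3). Cond 2 and Cond 3 lay above Cond 1 without overlap (exact two-sided permutation test, p = 0.1 for each, the smallest p that 3 libraries against 3 allow). Cond 4 did not differ from Cond 1 beyond the spread (exact permutation p = 1.0), nor Cond 3 from Cond 2 (exact permutation p = 0.3). The sum of both genes was 13.0 ± 2.15 TPM in Cond 1 and 13.3 ± 4.02 in Cond 2, and it was 3.68 ± 1.30 in Cond 3 and 11.6 ± 2.28 in Cond 4 (SD, n = 3).

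**Figure D2:**
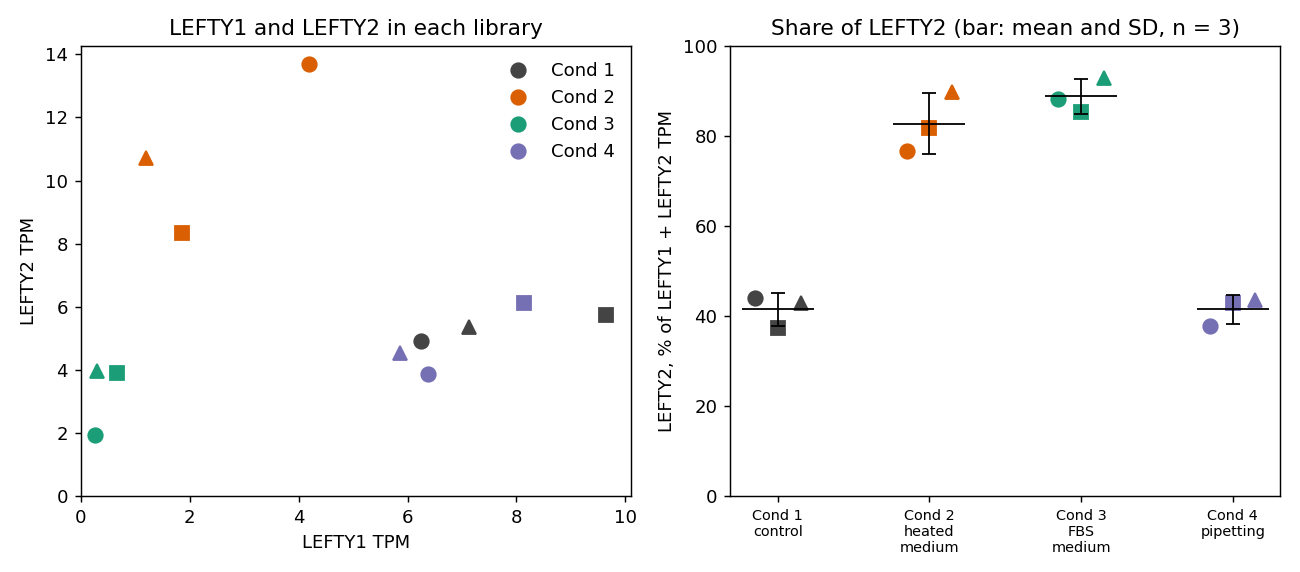
Left, LEFTY2 TPM (y axis) against LEFTY1 TPM (x axis) in each of the 12 libraries, coloured by condition, with circles, squares and triangles for replicates 1, 2 and 3; right, LEFTY2 as a percentage of the summed TPM of both genes (y axis) by condition, with bars for the mean and SD of 3 libraries. Cond 1 and Cond 4 lie together, Cond 2 lies at lower LEFTY1 and higher LEFTY2, and Cond 3 is low for both, with a mean LEFTY2 share of 82.8% in Cond 2 and 88.8% in Cond 3 against 41.5% in Cond 1.

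LEFTY1 and LEFTY2 are close copies of each other. They share 613 31-base words, which are 33.0% of those of LEFTY1 and 26.9% of those of LEFTY2, and reads from the shared part do not tell the genes apart. LEFTY2 also overlaps the gene model ENSG00000248322, at 0 to 1.08 TPM.

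CER1, a secreted antagonist that binds NODAL and BMP ligands, did not differ between conditions beyond the test. Its TPM was 8.07, 4.01 and 3.23 in Cond 1, 6.68, 1.30 and 2.73 in Cond 2, 3.63, 6.16 and 4.81 in Cond 3, and 4.35, 6.09 and 5.33 in Cond 4. Within Cond 2 the highest library was 5.15 times the lowest, the widest spread of any of the 8 genes in any condition. The log2 fold change was -0.60 in Cond 2 (standard error 0.458, edgeR adjusted p = 0.409) and -0.098 in Cond 3 (standard error 0.443, edgeR adjusted p = 0.892) against Cond 1, and 0.50 in Cond 3 against Cond 2 (standard error 0.459, edgeR adjusted p = 0.426). Without replicate 1 of Cond 2 it passed the test as lower in Cond 2 than in Cond 1 (-1.46, edgeR adjusted p = 0.0319), and Cond 3 was then above Cond 2 (1.36, edgeR adjusted p = 0.0285). CER1 rested on 9 to 54 reads per library, which limits the precision of these values.

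Replicate 1 of Cond 2 stood at the edge of its condition for several of the genes. It had the highest LEFTY1, LEFTY2, CER1 and GDF3 and the lowest TDGF1 and SKIL of the 3 libraries of Cond 2. The same library had the highest sums of neuroectoderm markers (1105 TPM) and of surface ectoderm and amnion markers (72.6 TPM) of that condition. Without this library NODAL, TDGF1, LEFTY1, FOXH1 and SKIL still fell in Cond 2, and the part of the markers in its values was not tested.

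FOXH1, the forkhead factor that brings SMAD2 and SMAD3 to DNA, had the smallest standard errors of the 8 genes. Its TPM was 220, 208 and 199 in Cond 1, 179, 158 and 190 in Cond 2, 114, 106 and 116 in Cond 3, and 202, 171 and 189 in Cond 4. Cond 3 lay below every other condition, and Cond 2 lay below Cond 1 but overlapped Cond 4. FOXH1 was 1.26-fold lower in Cond 2 (log2 fold change -0.33, standard error 0.0702, edgeR adjusted p = 0.00076) and 1.90-fold lower in Cond 3 (-0.93, standard error 0.0714, edgeR adjusted p = 7.21e-11). Between Cond 3 and Cond 2 the log2 fold change was -0.59 (standard error 0.0715, edgeR adjusted p = 2.06e-07). Over 791 bases FOXH1 overlaps KIFC2 on the opposite strand, which was at 20.0 to 48.5 TPM.

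SKIL, which encodes the SMAD repressor SnoN and is itself a target of the pathway, kept a strict order of conditions. Its TPM was 65.7, 63.8 and 63.7 in Cond 1, 41.6, 52.9 and 50.8 in Cond 2, 23.1, 31.8 and 26.8 in Cond 3, and 67.1, 72.0 and 71.3 in Cond 4. No libraries of different conditions overlapped, with Cond 3 lowest, then Cond 2, Cond 1 and Cond 4. SKIL was 1.41-fold lower in Cond 2 (log2 fold change -0.50, standard error 0.0873, edgeR adjusted p = 0.000242) and 2.41-fold lower in Cond 3 (-1.27, standard error 0.0898, edgeR adjusted p = 8.37e-10), and the step from Cond 2 to Cond 3 was -0.77 (standard error 0.0900, edgeR adjusted p = 1.06e-06). Every Cond 4 library was higher than every Cond 1 library, but that log2 fold change was 0.11 (standard error 0.0863, edgeR adjusted p = 0.905).

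**Figure D3:**
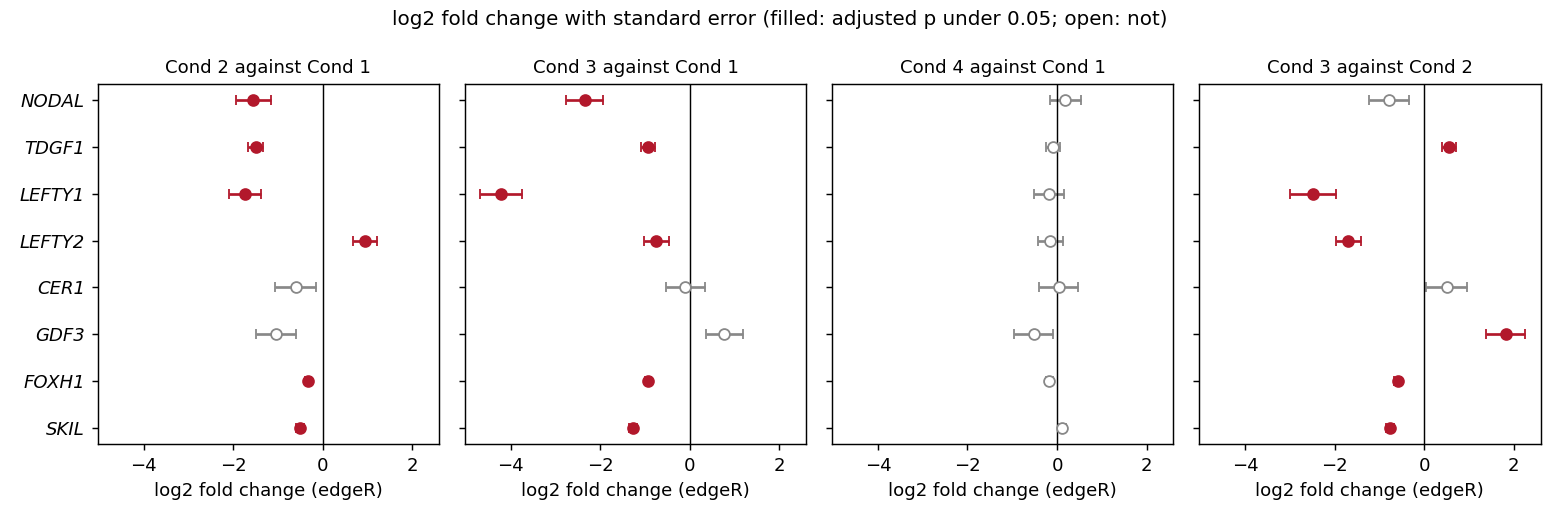
log2 fold change from edgeR (x axis) with its standard error (horizontal bars) for the 8 genes (y axis) in 4 comparisons, 1 panel each, with filled symbols for an adjusted p under 0.05 and open symbols otherwise. In Cond 2 against Cond 1, LEFTY2 (0.95) is the filled symbol to the right of 0; in Cond 3 against Cond 1, LEFTY1 (-4.22) lies farthest to the left; all 8 symbols for Cond 4 are open.

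The direct comparison of the changed media separated the genes further. As these media were given from different days, the comparison cannot tell the medium from the time of exposure. In Cond 3 against Cond 2, LEFTY1, LEFTY2, SKIL and FOXH1 were lower (4 of 8, where 19.2% of all genes were lower), and TDGF1 and GDF3 were higher (2 of 8, where 19.0% of all genes were higher). The share of members called higher was near that of all genes. CER1 did not pass the test, and the change of NODAL was -0.79 on the log2 scale (standard error 0.448, edgeR adjusted p = 0.173).

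After pipetting at passaging (Cond 4), the libraries lay close to those of Cond 1 for most of these genes. None of the 8 passed the test against Cond 1, where 0.0169% of all genes (3 of 17747, by edgeR) did. At an unadjusted p under 0.05 edgeR gave 1096 of all genes and 1 of the 8, FOXH1 (log2 fold change -0.17, standard error 0.0701, adjusted p = 0.783). DESeq2 called 12 of all genes and 0 of the 8. The log2 fold changes of the 8 genes lay between -0.51 (GDF3, standard error 0.436) and 0.19 (NODAL, standard error 0.354). The standard errors were 0.0701 for FOXH1, 0.0863 for SKIL and 0.157 for TDGF1, and between 0.277 and 0.444 for the other genes, so that small changes in the low transcripts were not detectable at this depth.

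Of 50 other genes of the pathway, in lists of ligands, receptors, convertases, SMADs with cofactors, inhibitors and targets, 39 could be tested. In Cond 2, 13 rose and 2 fell against Cond 1, where 10.9% of all genes tested rose and 10.2% fell. In Cond 3, 9 rose and 11 fell, where 19.6% of all genes rose and 18.9% fell. In Cond 4, 0 passed the test, where 0.0169% of all genes did. In Cond 3 against Cond 2, 3 were higher and 17 lower, where 19.0% of all genes were higher and 19.2% lower. The same shares of all genes apply to the counts per list below. Of the 11 genes not tested, EP300 had no count row, and the others had at most 17 reads in any library.

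Among 5 other ligands tested, 2 rose in Cond 2 and 2 in Cond 3, and 0 fell. INHBA, which encodes the subunit of activin A, was at 0.284 ± 0.162 TPM in Cond 1 and 1.11 ± 0.290 in Cond 3 (SD, n = 3; log2 fold change 1.94, edgeR adjusted p = 0.00302). TGFB2 rose in Cond 2 (1.42, edgeR adjusted p = 0.00687), and TGFB1 in Cond 3 (0.90, edgeR adjusted p = 4.35e-06). The StemFit media and the FBS medium differ in composition, and only transcripts of the cells were measured here.

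Receptor transcripts moved by at most 0.80 on the log2 scale in Cond 2 and Cond 3. Of 7 tested, 3 rose and 0 fell in Cond 2, and 2 rose and 2 fell in Cond 3. TGFBR1, a type I receptor for TGF-beta, rose in Cond 2 (log2 fold change 0.50, edgeR adjusted p = 5.58e-07). TGFBR3, also called betaglycan, rose in Cond 3 (0.80, edgeR adjusted p = 0.000702), and ACVR1C, a type I receptor that can bind NODAL, fell there (-0.74, edgeR adjusted p = 0.0414) from 1.31 ± 0.254 TPM in Cond 1 to 0.794 ± 0.0626 in Cond 3 (SD, n = 3). FURIN, a convertase that cleaves the NODAL precursor, was 1 of 2 convertases tested and fell in Cond 2 (-0.32, edgeR adjusted p = 0.00325).

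Of 6 SMADs and cofactors, 2 rose in Cond 2 and 2 fell in Cond 3. SMAD4, the common partner of receptor-activated SMADs, rose in Cond 2 (log2 fold change 0.32, edgeR adjusted p = 0.000768), and so did TRIM33 (0.38, edgeR adjusted p = 1.98e-05), which binds SMAD2 and SMAD3. SMAD3 fell in Cond 3 (-0.30, edgeR adjusted p = 0.00937).

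Of 12 inhibitors other than the members, 2 rose and 0 fell in Cond 2, and 2 rose and 5 fell in Cond 3. FST, or follistatin, which binds activins, rose in both, from 66.6 ± 4.46 TPM in Cond 1 to 184 ± 15.1 in Cond 2 and 126 ± 18.5 in Cond 3 (SD, n = 3; log2 fold change 1.38, edgeR adjusted p = 1.06e-08, and 0.89, edgeR adjusted p = 1.49e-06). SMAD7, an inhibitory SMAD induced by TGF-beta signals, had 25.4, 22.5 and 20.9 TPM in Cond 1, 58.9, 42.6 and 33.0 in Cond 2, and 9.57, 15.2 and 11.1 in Cond 3. It rose in Cond 2 (0.89, edgeR adjusted p = 0.0173) and fell in Cond 3 (-0.97, edgeR adjusted p = 0.00897), the same pair of directions as LEFTY2. PMEPA1, which keeps SMAD2 and SMAD3 from the receptor, fell in Cond 3 (-0.76, edgeR adjusted p = 5.48e-06) and was at -0.16 in Cond 2 (edgeR adjusted p = 0.362).

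Of 7 targets tested, 4 rose and 1 fell in Cond 2, and 3 rose and 2 fell in Cond 3. HHEX, a homeobox gene of the anterior endoderm, was at 0.956 ± 0.120 TPM in Cond 1, 13.5 ± 3.42 in Cond 2 and 3.23 ± 0.343 in Cond 3 (SD, n = 3; log2 fold change 3.71, edgeR adjusted p = 2.66e-10, and 1.71, edgeR adjusted p = 8.44e-05). TBXT, or brachyury, passed the test as higher in Cond 3 at 11, 20 and 18 reads per library against 0, 3 and 0 in Cond 1, so that it remained near the limit of detection. The directions of the tested targets were mixed, with HHEX higher and NANOG lower in both media. Of the members that are also targets, NODAL, LEFTY1 and SKIL fell in both media, while LEFTY2 rose in Cond 2 and fell in Cond 3.

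**Figure D4:**
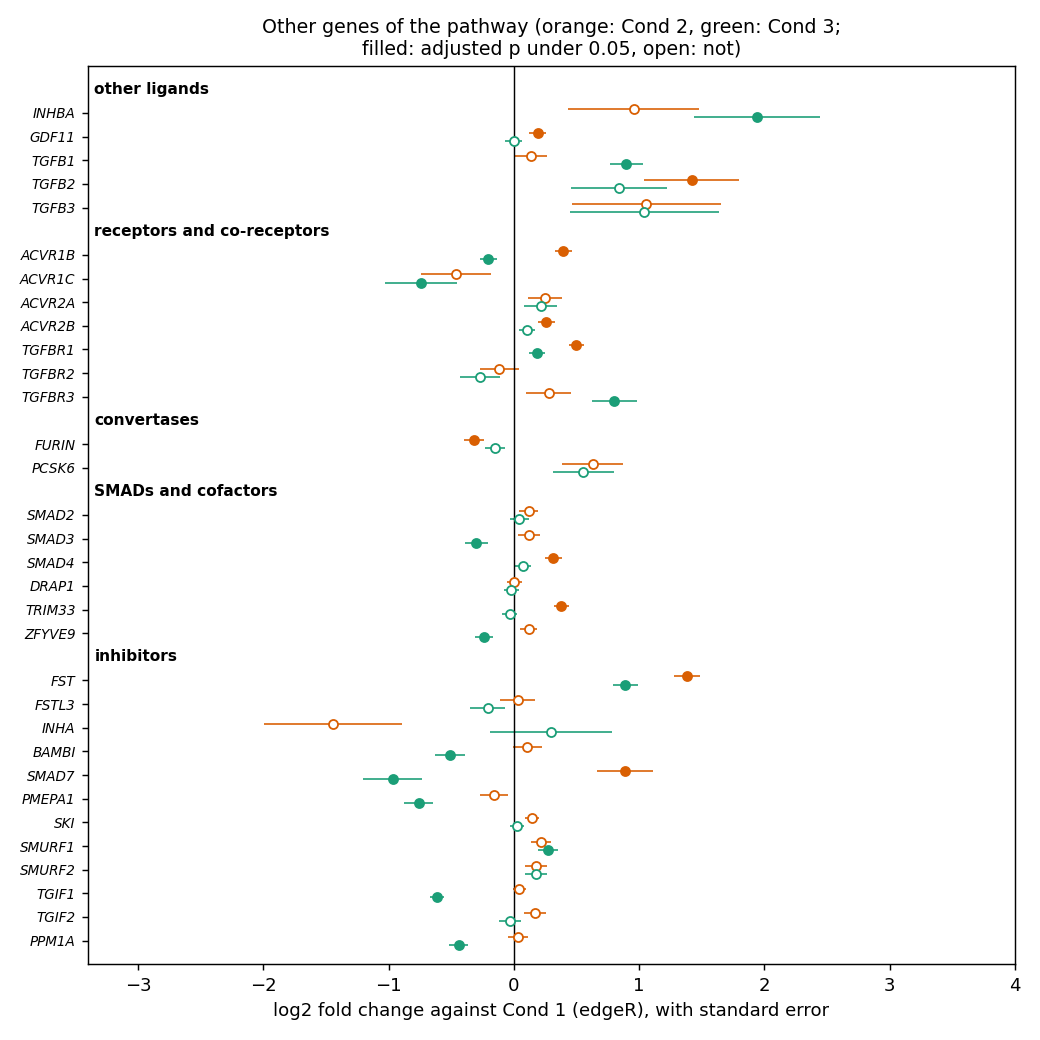
log2 fold change from edgeR (x axis) with its standard error for the 32 tested genes of the ligand, receptor, convertase, SMAD and inhibitor lists (y axis, grouped by list), in orange for Cond 2 and in green for Cond 3, each against Cond 1, with filled symbols for an adjusted p under 0.05. SMAD7 lies to the right in Cond 2 (0.89) and to the left in Cond 3 (-0.97), FST (1.38 and 0.89) lies to the right in both, and most receptors and SMADs lie near 0.

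For each of the 8 genes, the genes whose log2 CPM (read counts scaled to library size) followed it most closely over the 12 libraries were looked up among 15693 genes. The 12 libraries share 4 conditions, and such a correlation reads differences between conditions as well as within them, so that Pearson's r is a description here and carries no p. TDGF1 was followed most closely by its pseudogene TDGF1P3 (r = 0.989) and by NQO2 (r = 0.987). SKIL was followed by SPRY4 (r = 0.987) and ETV5 (r = 0.986). ETV5 was at 32.7 ± 5.45 TPM in Cond 1, 13.8 ± 3.15 in Cond 2, 2.25 ± 0.769 in Cond 3 and 33.1 ± 1.69 in Cond 4 (SD, n = 3). FOXH1 had PRKCSH (r = 0.990) and RHEB (r = 0.986), and LEFTY1 had STPG3 (r = 0.972) and DICER1-AS1 (r = 0.970). LEFTY2 had APC2 (r = 0.935) and PLAU (r = 0.926), both with their highest mean in Cond 2 and their lowest in Cond 3. NODAL had LRRFIP1 (r = 0.959) and OCIAD2 (r = 0.957), GDF3 had MGST3 (r = 0.926) and ARAP1 (r = 0.917), and CER1 had NXPH4 (r = 0.887) and TCHP (r = 0.874). Between members, LEFTY1 followed SKIL (r = 0.932) and FOXH1 (r = 0.894) more closely than its neighbour LEFTY2 (r = 0.370).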

How the data were processed

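RNA-Seq was analysed in 12 libraries of 201B7, 3 for each of 4 conditions, grouped by their labels. Per the labels and the methods, the authors made poly(A), strand-specific libraries and processed them with bcl2fastq 2.20.0.422, cutadapt 4.1, fastp 0.20.1, HISAT2 2.1.0 on GRCh38 and featureCounts, whose version, strand setting and handling of multiply mapped reads are not given in the sources used here. The authors deposited read counts per gene, as whole numbers without normalization, and TPM values made from these counts and gene lengths. Recomputing the TPM gave a largest relative deviation of 1.79e-14. Of 58580 data lines in the count table, 5 held no whole gene row and were left out, and 2042 genes of the TPM table had no count row.

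Counts were normalized by TMM, filtered with filterByExpr and compared by quasi-likelihood F-tests (edgeR 4.0.16, robust fit, R 4.3.3) in a single model of all libraries, with Benjamini-Hochberg adjustment over 17747 genes. The counts test was used where the study's methods name limma on TPM, which was kept as an alternative (limma 3.58.1). The scripts were tested on simulated data. Other alternatives were DESeq2 1.42.0, other normalizations, filters and thresholds, the 6 libraries compared alone, a replicate block and each library left out. A non-robust fit and sums of genes that share reads were added after seeing the data. The 31-base words came from GENCODE release 44 transcripts and GRCh38, and promoter sequences from RefSeq, in which 4 of the 8 genes were used. Likeness used log2 CPM with a prior count of 2 in genes with a mean TPM of at least 1.

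The members and lists were chosen with earlier results of these data known. Named pathway genes were, per list, at most the 3 genes called with the largest change in Cond 2 or Cond 3 against Cond 1. Some genes that this rule would name are not reported here. Low counts limit the precision for NODAL, GDF3, CER1, LEFTY1 and LEFTY2, at 3 to 158 reads per library.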

Additional observations from a re-analysis of the deposited data

How the results depend on the processing

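Of 512 values of the 8 genes under alternative settings, 493 kept their side of the threshold, 14 lost the call, 4 gained one and 1 called value reversed. Values that passed the test in neither setting were counted as kept even where their sign changed. An example is CER1 in Cond 3 against Cond 1, at -0.098 with all libraries and 0.39 without replicate 1 of Cond 1. The reversed value was LEFTY1 in Cond 2 when its counts were summed with those of LEFTY2 (log2 fold change 0.063, edgeR adjusted p = 0.896), as the genes moved in opposite directions there. With a fold change above 2 required, 0 of 8 genes rose and 3 fell in Cond 2, 0 rose and 3 fell in Cond 3, and 1 was higher and 2 lower in Cond 3 against Cond 2. With limma on log2(TPM + 1) in every gene not at 0 throughout, 3 fell in Cond 2, NODAL (-1.13, limma adjusted p = 0.0655) and FOXH1 (-0.25, limma adjusted p = 0.0858) being lost, and LEFTY2 lost its call in Cond 3 (limma adjusted p = 0.125); the cause was not tested. LEFTY1 was not in the limma fits that ask for 1 TPM or more in each library. In Cond 3 against Cond 2, 1 gene was higher at an adjusted p under 0.01 and 1 with the 6 libraries alone, where TDGF1 was lost (0.56, edgeR adjusted p = 0.104). Leaving out a library gave 0 to 1 genes risen and 4 to 6 fallen in Cond 2, 0 to 1 risen and 5 to 6 fallen in Cond 3, and 1 to 3 higher in Cond 3 against Cond 2. By read counts in place of TPM, the LEFTY2 share was 46.13% in Cond 1 and 46.13% in Cond 4. Whether the replicate numbers pair the libraries cannot be settled from these values. Deviations of 18 same-numbered pairs correlated between -0.0977 and 0.137, with 3 over 0.1, and those of differently numbered pairs between -0.199 and 0.197. Every same-numbered pair that included Cond 4 was positive (0.0314 to 0.114), and most differently numbered pairs with Cond 4 were negative. Same-numbered pairs without Cond 4 had both signs. With a replicate block, 1 of 8 genes rose and 5 fell in Cond 2, and all 32 values kept their call. Most of the calls that depended on 1 library were of the 5 low transcripts, whose precision is limited by low counts. The others were of TDGF1 in Cond 3 against Cond 2, a gene with 4416 reads or more in every library. The part of depth in these calls was not tested.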
